A study of Mus musculus with 6 samples.

Results

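The heat shock chaperone genes described here are the 10 feature rows, of 31053 in the deposited tables, that carry the symbols Hspa1a, Hspa1b, Dnajb1, Hspa8, Hsph1, Dnaja1, Hsp90aa1, Hsp90ab1, Hspd1 and Hspe1. They were taken by symbol, not by level, and each symbol matched 1 row. Of these, 3 (Hspa1a, Hspa1b and Dnajb1) are the members that stress induces most, and the other 7 are made in unstressed cells as well. The RNA came from single cells of the pancreatic lymph nodes of 6 mice, captured in droplets with 10x Genomics chemistry, which counts captured RNA molecules by unique molecular identifiers (UMIs). The 3 Cre-positive mice carried a floxed gene together with the CD4-Cre transgene, and the 3 Cre-negative mice carried the floxed gene without it. CD4-Cre is driven by Cd4 regulatory sequence and cuts floxed DNA in developing T cells that express Cd4, the later CD8 T cells among them, whereas B cells do not express Cd4. The labels give no strain, sex or age, and each library is 1 mouse.

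Heat shock proteins are chaperones: they hold unfolded or partly folded proteins, keep them from clumping and use ATP to help them fold. In the cytosol, proteins of the HSP40 family hand a client to HSP70, exchange factors such as Hsph1 reload HSP70 with ATP, and HSP90 takes over clients such as kinases and steroid hormone receptors, while Hspd1 and Hspe1 form the folding chamber of mitochondria. When unfolded proteins build up, the transcription factor Hsf1 binds heat shock elements, which are short inverted repeats in promoters, and switches on Hspa1a, Hspa1b and Dnajb1 most strongly. T cells use the same machinery to mature antigen receptor kinases and to grow after activation, and tissue dissociation is itself known to induce these genes in single-cell preparations.

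The members lie on 7 chromosomes in the GENCODE M21 annotation of mm10. Hspa1b (chr17:34956436-34959238) and Hspa1a (chr17:34969190-34972156), both on the minus strand of the major histocompatibility region, encode the inducible HSP70 and are 9951 bases apart. As a share of the longer sequence, matching bases made up 99.43% of their coding sequences and 51.1% of their 3′ UTRs. The 3′ UTRs differ in length, 810 bases in Hspa1a and 643 in Hspa1b, which lowers the second share. None of the 90-base windows of the last 500 bases of either transcript occurs whole in the other. Reads from the shared part cannot be placed on 1 of the 2 genes. The summed UMIs of Hspa1a and Hspa1b are also given and called the inducible HSP70 pair. The sum holds only UMIs counted for either gene, and does not recover reads that the counting left out. Hspd1 (chr1:55077835-55088243, minus strand) and Hspe1 (chr1:55088132-55091307, plus strand) lie head to head, with first exons on opposite strands that overlap. Dnaja1 (chr4:40722150-40737149) and Dnajb1 (chr8:83608193-83612653) encode HSP40 proteins, Hspa8 (chr9:40800984-40810087) the constitutive HSP70, and Hsph1 (chr5:149614287-149636376) an exchange factor. Hsp90aa1 (chr12:110690605-110702728) and Hsp90ab1 (chr17:45567775-45573271) encode the more inducible and the more constant cytosolic HSP90. Whether counting used the strand is not given in the sources used here, which bears on Hspd1 and Hspe1 and on Hspa1a, which the antisense gene Gm20481 overlaps.

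Promoter sequence from the RefSeq table for GRCm38.p6 was at hand for 7 of the 10 members and is shown because Hsf1 acts through such elements. A heat shock element was searched on both strands, in the 250 bases before the annotated start, as adjoining inverted units of the form GAANNTTC or TTCNNGAA. A gene was counted if the window of any of its annotated starts held a match. At least 1 such match lay in 6 of the 7 promoters (85.71%), against 3932 of all 27025 genes with a promoter (14.55%). Dnaja1 and Hspd1 also had annotated starts without a match. Runs of 3 alternating units, which contain the 2-unit forms, lay in 2 of 7 (28.57%), against 139 of all genes (0.5143%). These 2 are Hspe1 and Hspd1, whose matches are 1 shared stretch counted for each gene. Stretches of 30 bases around the matches follow, 5′ to 3′ on the gene's own strand, with the matching bases in capitals.
Hspa1a, chr17:34972242-34972271, minus strand: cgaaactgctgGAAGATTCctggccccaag
Hspa1b, chr17:34959324-34959353, minus strand: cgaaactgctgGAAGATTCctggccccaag
Dnaja1, chr4:40722333-40722362, plus strand: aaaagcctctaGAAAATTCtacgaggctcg
Hsph1, chr5:149636351-149636380, minus strand: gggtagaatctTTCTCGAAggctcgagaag
Hspe1, chr1:55088053-55088082, plus strand: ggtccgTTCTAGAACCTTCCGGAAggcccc
Hspd1, chr1:55088053-55088082, minus strand: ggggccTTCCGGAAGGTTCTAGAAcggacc

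The stretches of Hspa1a and Hspa1b were identical in all 30 bases and lay 96 to 104 bases before each start. Hspe1 and Hspd1 shared 1 stretch, read from opposite strands, with 3 adjoining 2-unit matches 71 to 89 bases before the start of Hspe1. Dnajb1, an inducible gene, held no match of these letters in its windows. Cochaperone genes held a 2-unit match in 6 of 25 promoters (24%) and chaperone genes of the endoplasmic reticulum in 0 of 13. A match is a description of the letters, and binding was not measured.

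The 6 libraries held 8209 to 10936 barcodes and 47149014 to 61321105 UMIs, and 51777 cells were kept. Cells were placed in classes by the UMIs of marker genes: 10770 conventional CD4, 1349 regulatory and 7697 CD8 T cells, 5339 B cells, 1750 myeloid and dendritic cells, 285 cycling lymphocytes and 197 plasmacytoid dendritic cells. UMIs were summed per mouse and class and scaled by that sum to give CPM, the usual UMIs-per-total scale. CPM is not per length, so levels of different genes are not ranked against each other. Cst3, one of the markers used to keep myeloid RNA out of the lymphocyte gates, was present at 122 CPM in the B cells that passed, and without it the B gate held 11968 cells. Cre-positive 2 had the most UMIs and the lowest median mitochondrial share, 3.91% against up to 4.82% in the other libraries.

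The inducible HSP70 pair was near its floor in lymphocytes and higher in myeloid and dendritic cells. Its level in myeloid and dendritic cells was 27.1, 53.7 and 15.4 CPM in Cre-positive mice and 25.7, 36.3 and 10.5 CPM in Cre-negative mice. In conventional CD4 T cells it was 3.01, 4.95 and 3.902 CPM in Cre-positive mice and 2.13, 0.739 and 3.89 CPM in Cre-negative mice. Every mouse had more of the pair in its myeloid and dendritic cells than in its conventional CD4 T cells, and the ranges of the 6 mice did not overlap between the classes.

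Both genes of the pair carried that difference. Hspa1a averaged 15.4 ± 9.55 CPM in myeloid and dendritic cells and 1.28 ± 0.711 CPM in conventional CD4 T cells (SD, n = 6 mice). The log2 fold change was 3.97 (SE 0.47) with an adjusted p of 5.09e-09 in edgeR's quasi-likelihood test, with mouse as a term and Benjamini-Hochberg adjustment over 9985 genes. Hspa1b averaged 12.7 ± 7.35 CPM in myeloid and dendritic cells and 1.83 ± 0.881 CPM in conventional CD4 T cells, a log2 fold change of 3.20 (SE 0.33, adjusted p = 8.78e-13). Myeloid and dendritic cells held fewer UMIs each than conventional CD4 T cells, with medians of 1859.5 to 3318.5 against 4314 to 5664 across mice. The immediate early genes, which dissociation induces, were also higher there in 13 of 16 cases (summed level 3448 to 7288 CPM in myeloid and dendritic cells and 4239 to 4863 CPM in conventional CD4 T cells), and their part in the difference was not tested.

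In single cells the pair was rare in every class. At least 1 UMI of the pair was found in 115 of 1750 myeloid and dendritic cells, 4 of which held 5 or more, and in 151 of 10770 conventional CD4 T cells. When each cell was thinned to 2000 UMIs, leaving 939 myeloid and dendritic cells and 10660 conventional CD4 T cells, the mean share of cells with a UMI was 3.46% in myeloid and dendritic cells and 0.553% in conventional CD4 T cells. Without thinning the shares were 6.32% in myeloid and dendritic cells and 1.36% in conventional CD4 T cells. The thinned share in myeloid and dendritic cells was 3.91%, 6.16% and 3.31% in Cre-positive mice and 2.99%, 3.11% and 1.32% in Cre-negative mice. This separation by genotype came from 1 random draw of UMIs and was not tested. The share of all genes separated in that way is not given here. Without thinning the groups overlapped: 12 of 255 such cells held a UMI of the pair in Cre-positive 1, and 15 of 254 in Cre-negative 1. No class in the node is known to lack the genes of the pair. The share that free RNA in the droplets would give could therefore not be set beside these shares. The part of free RNA in the lymphocyte values was not tested. Among CD8 T cells thinned in this way, the 61 cells with a UMI of the pair had on average 2.75 times the Fos and 2.26 times the Jun of the 7598 cells without, higher in 6 of 6 mice for both of these immediate early genes, which dissociation also induces. In conventional CD4 T cells, with 61 such cells, the ratio was 2.06 for Fos (higher in 5 of 6 mice) and 1.16 for Jun (3 of 6). In B cells, with 27 such cells, it was 0.688 for Fos and 4.11 for Jun (3 of 6 mice each). Across mice the B-cell Jun ratio ran from 0 to 15.7. For Dnajb1 the mean ratio was 1.79 in conventional CD4 T cells (higher in 4 of 6 mice). It was 1.11 in CD8 T cells and 1.70 in B cells (3 of 6 mice each).

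**Figure D1:**
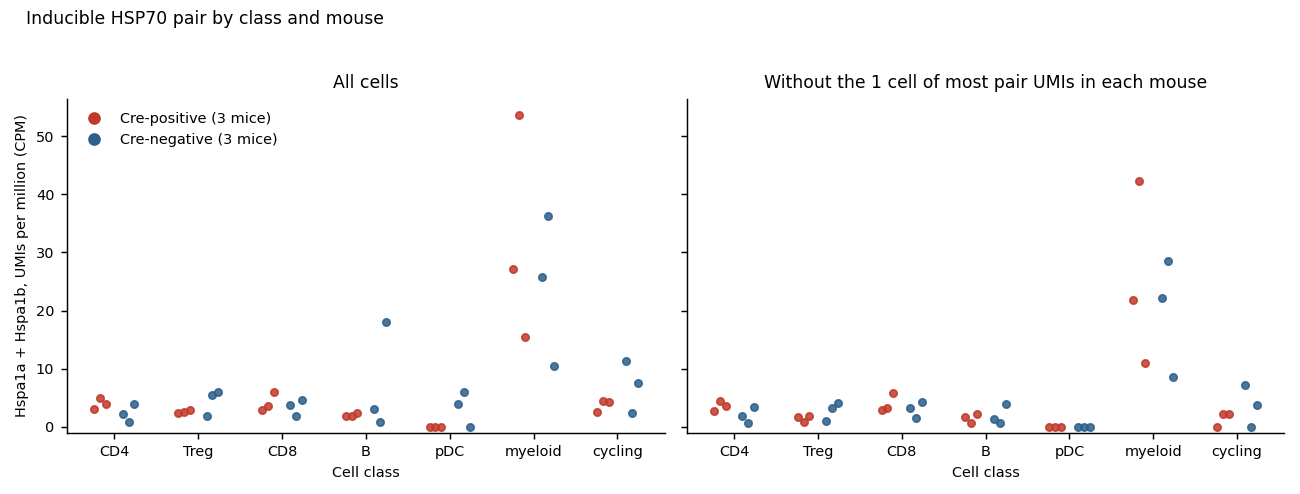
Summed level of Hspa1a and Hspa1b (CPM, linear axis) in each cell class, 1 point per mouse, Cre-positive left of Cre-negative; the left panel holds all cells, the right panel leaves out the 1 cell with most UMIs of the pair in each mouse and class. In the left panel myeloid and dendritic cells run from 10.5 to 53.7 CPM and the B cells of Cre-negative 3 stand at 18.1 CPM, which is 3.86 CPM in the right panel.

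The other classes gave no order for the pair beyond the spread of the mice. Cycling lymphocytes averaged 5.397 ± 3.46 CPM, B cells 4.67 ± 6.599, CD8 T cells 3.796 ± 1.45, regulatory T cells 3.53 ± 1.75 and conventional CD4 T cells 3.10 ± 1.498 (SD, n = 6 mice). The B-cell mean rests on 1 mouse, Cre-negative 3, at 18.1 CPM. Plasmacytoid dendritic cells gave 3 UMIs of the pair in all, in 2 of 197 cells, from 2 of the 6 mice. The other 4 mice were at 0, which allows up to 20.3, 10.8 and 9.21 CPM in Cre-positive mice and 14.5 CPM in Cre-negative 3 (3 UMIs per library, counting error only).

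Dnajb1, the inducible HSP40, was lower in myeloid and dendritic cells and in B cells than in conventional CD4 T cells. In myeloid and dendritic cells Dnajb1 had 47.5, 66.5 and 51.8 CPM in Cre-positive mice and 31.8, 52.6 and 33.5 CPM in Cre-negative mice. In B cells it had 65.8, 69.6 and 48.1 CPM in Cre-positive mice and 59.0, 47.5 and 65.8 CPM in Cre-negative mice. In conventional CD4 T cells it had 102, 126 and 100.3 CPM in Cre-positive mice and 101, 92.3 and 113 CPM in Cre-negative mice. The conventional CD4 T cells of every mouse lay above both other classes with no overlap. The log2 fold change against conventional CD4 T cells was -0.79 (SE 0.10, adjusted p = 8.08e-12) in myeloid and dendritic cells and -0.82 (SE 0.07, adjusted p = 2.94e-19) in B cells. In myeloid and dendritic cells the pair was thus higher and Dnajb1 lower, whereas in B cells neither gene of the pair was called.

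Of the 10 members, 9 differed between myeloid and dendritic cells and conventional CD4 T cells. In all, 5 were higher, where 40.4% of all genes were called higher, and 4 were lower, where 33.2% of all genes were called lower. Cells with cycling markers were taken out of the lymphocyte classes but not out of the myeloid and dendritic class. There 8 of 8 proliferation markers were higher, and the part of cycling cells in the members' differences was not tested. Hspa8, the constitutive HSP70, averaged 2212 ± 198 CPM in myeloid and dendritic cells and 1678 ± 139 CPM in conventional CD4 T cells, without overlap (log2 fold change 0.74, SE 0.06). Hspe1 (0.50, SE 0.06) and Hsp90ab1 (0.27, SE 0.05) were the other 2 higher members. CPM uses the total alone, whereas fitted fold changes use edgeR's TMM factors, so the 2 can differ in direction: Hsp90ab1 averaged 1625 ± 206 CPM in myeloid and dendritic cells and 1709 ± 248 CPM in conventional CD4 T cells. Besides Dnajb1, the lower members were Hsph1 (-0.75, SE 0.10), Dnaja1 (-0.61, SE 0.06) and Hsp90aa1 (-0.26, SE 0.06), all without overlap. With library size alone as the scaling, the median of all genes moved to -0.26 and 4 members were higher and 5 lower, with Hsp90ab1 at -0.065. Without Cst3 in the gates 2 members were higher and 6 lower: the pair kept its direction (Hspa1a 3.32 and Hspa1b 2.68), Hsp90ab1 became lower (-0.15), and Hspa8 (0.10, adjusted p = 0.152) and Hspe1 (0.15, adjusted p = 0.164) were no longer called.

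B cells differed from conventional CD4 T cells in 7 members. Among them 4 were higher (33.6% of all genes were): the mitochondrial chaperonins Hspe1 (log2 fold change 0.33, SE 0.06) and Hspd1 (0.23, SE 0.08), and the cytosolic HSP90 genes Hsp90ab1 (0.33, SE 0.05) and Hsp90aa1 (0.22, SE 0.05). The other 3 were lower (31.6% of all genes were), the HSP40 genes Dnajb1 and Dnaja1 and the constitutive Hspa8 (-0.24, SE 0.06). Dnaja1 averaged 421 ± 77.9 CPM in B cells and 705 ± 98.0 CPM in conventional CD4 T cells (SD, n = 6 mice; log2 fold change -0.74, SE 0.06, adjusted p = 5.48e-21), and no B-cell value reached a CD4 value. Without Cst3 in the gates, with 11968 B cells, the 3 lower members stayed lower, Hsph1 joined them (-0.13), and 0 were higher. For Hspd1 the adjusted p was 0.0644 when Cre-negative 1 was left out and 0.0515 when Cre-negative 3 was.

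CD8 T cells had more of the mitochondrial chaperonin RNA than conventional CD4 T cells. Hspe1 had 649, 710.5 and 749 CPM in the CD8 T cells of Cre-positive mice and 615, 608 and 601 CPM in those of Cre-negative mice. The same mice had 478, 536 and 537 CPM (Cre-positive) and 459, 441 and 437 CPM (Cre-negative) in conventional CD4 T cells. Every CD8 value lay above every CD4 value, a log2 fold change of 0.55 (SE 0.06, adjusted p = 1.1e-12). Hsph1 (0.29, SE 0.06, adjusted p = 3.35e-05), Hspd1 (0.23, SE 0.08, adjusted p = 0.0146) and Hspa8 (0.14, SE 0.06, adjusted p = 0.0431) were called as well, so that 4 of 10 members were higher (15.6% of all genes) and 0 lower (16.8% of all genes). The call of Hspa8 was lost when any 1 mouse was left out (adjusted p 0.0675 to 0.116), and that of Hspd1 without Cre-positive 3 (0.0509). With library size alone the median of all genes moved to -0.11, and Hspe1 (0.44) and Hsph1 (0.18) were the 2 members still called.

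Regulatory T cells had less Hspa8 and less Dnajb1 than conventional CD4 T cells, each lower in 6 of 6 mice. Hspa8 had 1446, 1467 and 1689 CPM in the regulatory T cells of Cre-positive mice and 1270, 1296 and 1302 CPM in those of Cre-negative mice. Conventional CD4 T cells of the same mice ran from 1525 to 1859 CPM, so the ranges of the classes overlap while each mouse moved the same way. The log2 fold change was -0.41 (SE 0.06, adjusted p = 7.28e-09) for Hspa8 and -0.35 (SE 0.08, adjusted p = 0.000246) for Dnajb1. These 2 members were lower, where 14.7% of all genes were, and 0 members were higher, where 17.1% of all genes were. An unadjusted p under 0.05 was found for 3 members, and DESeq2 also called 2 lower and 0 higher. With library size alone, which moved the median of all genes to 0.16, Hspa8 stayed lower (-0.25), Dnajb1 missed the threshold (-0.19, adjusted p = 0.0549), and Hsp90aa1 (0.21) and Hsp90ab1 (0.15) were higher. Regulatory T cells also had more immediate early RNA (13 of 16 genes higher), whose part was not tested. With 1 more UMI asked of each gate 8 members were lower, and without Cre-negative 2 the count was 4. The shares of all genes under these settings are not given here.

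Cycling lymphocytes, gated on Mki67, Top2a and Birc5, had the highest mean level of the mitochondrial chaperonin genes of any class. Hspd1 had 401, 321 and 418 CPM in the cycling lymphocytes of Cre-positive mice and 246, 218 and 231 CPM in those of Cre-negative mice. Its range in conventional CD4 T cells, 149.5 to 212 CPM, lay below all of these (log2 fold change 0.80, SE 0.10, adjusted p = 1.4e-08). Hspe1 (0.57, SE 0.07) also did not overlap, and Hsp90aa1 (0.38, SE 0.06) and Hsp90ab1 (0.13, SE 0.05, adjusted p = 0.0484) made 4 higher members, against 18% of all genes. Dnajb1 (-0.51, SE 0.12) and Dnaja1 (-0.29, SE 0.06) were lower, against 14% of all genes. Hsp90ab1 lost its call when any mouse but Cre-positive 2 was left out (adjusted p 0.0797 to 0.389), and both HSP40 genes lost theirs when cells were limited to 5% mitochondrial UMIs (Dnajb1 0.142, Dnaja1 0.198). Each sum rests on 38 to 55 cells that come from several classes, and genotype was not tested in them.

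**Figure D2:**
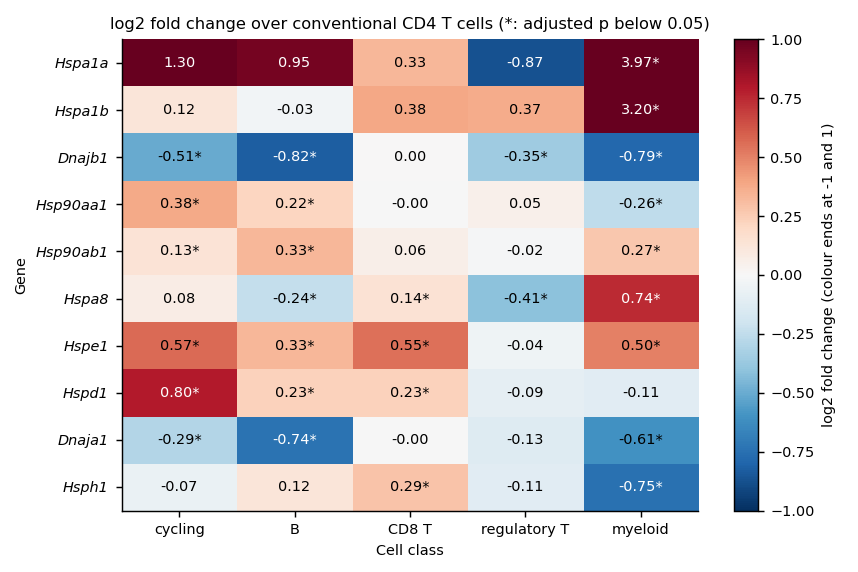
Heat map of the log2 fold change of each member (rows) in 5 classes (columns) over conventional CD4 T cells, with the value printed in each cell, an asterisk where the adjusted p is below 0.05 and a colour scale that ends at -1 and 1. Dnajb1 is below 0 in the 4 classes where it is called, and Hspe1 is above 0 in the 4 where it is called.

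In the order of mean levels across the 7 classes, neighbouring classes overlapped in the range of their mice for every member. The ends of the order were apart for several members: Hsph1 averaged 93.4 ± 15.2 CPM in CD8 T cells and 39.5 ± 10.1 CPM in myeloid and dendritic cells, and Hspd1 306 ± 88.1 CPM in cycling lymphocytes and 117 ± 14.2 CPM in plasmacytoid dendritic cells. Summed over the 10 members, the share of all UMIs stayed in a narrow band, from 0.491% in plasmacytoid dendritic cells and 0.542% in myeloid and dendritic cells to 0.646% in cycling lymphocytes, with 0.558% in conventional CD4 T cells.

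Within conventional CD4 T cells a state was set by Egr1 and Nr4a1, which antigen receptor signalling induces in T cells and dissociation can also induce. Conventional CD4 T cells with at least 2 UMIs of these genes (1779 cells) were compared with those that had none (6900 cells). Hsp90aa1 had 687, 831 and 777 CPM in the signal-positive cells of Cre-positive mice and 800, 663 and 723 CPM in those of Cre-negative mice. In cells without the signal it had 587, 678 and 608 CPM in Cre-positive mice and 636, 577 and 607 CPM in Cre-negative mice. Each of the 6 mice was higher in its signal-positive cells, with a log2 fold change of 0.24 (SE 0.03, adjusted p = 6.99e-11).

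Dnajb1 was at 121 ± 9.45 CPM in signal-positive cells and 100.2 ± 14.6 CPM in cells without the signal (log2 fold change 0.24, SE 0.06, adjusted p = 0.000585). Hsp90ab1 (0.15, SE 0.03, adjusted p = 1.25e-05) and Hspd1 (0.16, SE 0.04, adjusted p = 0.00532) rose as well, and all 3 were higher in 6 of 6 mice. The call of Hspd1 was lost in DESeq2 (adjusted p = 0.0828) and with no low-count filter (adjusted p = 0.0537). Hspa1b averaged 3.39 ± 2.32 CPM in signal-positive cells and 1.53 ± 0.827 CPM in cells without the signal (1.13, SE 0.38, adjusted p = 0.0297), higher in 5 of 6 mice, on 36 and 54 UMIs in all. Its adjusted p was 0.160 when Cre-negative 1 was left out, 0.252 when Cre-negative 3 was, 0.122 when Cre-positive 2 was, and 0.235 in DESeq2. With these, 5 of 10 members rose, where 8.29% of all genes did, and 0 fell, where 5.38% of all genes did. With library size alone 8 members were higher, in DESeq2 3 were, and 0 were lower in either. The immediate early list rose with the signal in 14 of 16 genes, Egr1 and Nr4a1 among them by the gate, and its part in the members' change was not tested.

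**Figure D3:**
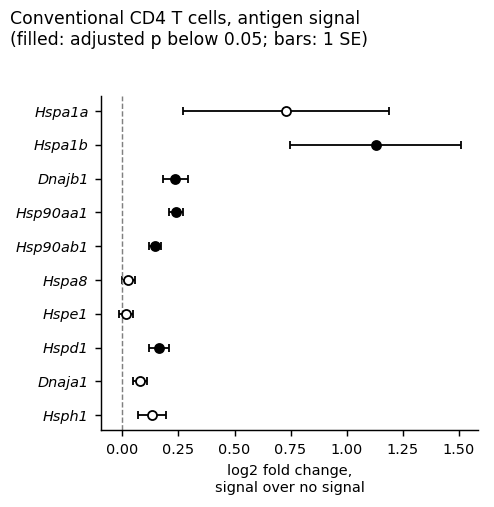
Log2 fold change of each member, with its standard error, in conventional CD4 T cells with the antigen signal over those without it. Filled points are called and open points are not. Hsp90aa1 and Dnajb1 lie at 0.24, and Hspa1b at 1.13 has a wider bar than either.

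In the genotype comparison most members were higher in Cre-positive mice by a small amount, and none passed the test over all genes. Hsp90ab1 had 1606, 2087 and 1913 CPM in the conventional CD4 T cells of Cre-positive mice and 1696, 1437 and 1512 CPM in those of Cre-negative mice. In CD8 T cells it had 1626, 1982 and 1825 CPM in Cre-positive mice and 1644, 1401 and 1454 CPM in Cre-negative mice. In both classes Cre-positive 2 and 3 were above the Cre-negative mice, while Cre-positive 1 was below Cre-negative 1.

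In regulatory T cells and B cells the mice were separated by genotype for this gene. Hsp90ab1 had 2086, 2065 and 2104 CPM in the regulatory T cells of Cre-positive mice and 1748, 1725 and 1584 CPM in those of Cre-negative mice. In B cells it had 2144, 2465 and 2379 CPM in Cre-positive mice and 2050, 1797 and 1941 CPM in Cre-negative mice. The log2 fold change of Hsp90ab1 was 0.28 (SE 0.08) in conventional CD4, 0.31 (SE 0.09) in regulatory and 0.29 (SE 0.09) in CD8 T cells and 0.29 (SE 0.08) in B cells. None of the 4 passed, with adjusted p of 0.820, 0.445, 0.550 and 0.653 in the same classes by edgeR's quasi-likelihood test.

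Over all members, edgeR called 0 by genotype in each of the 4 classes, and so did DESeq2. All genes gave 1 of 10588 called in conventional CD4 T cells (0.00944%), 1 of 7606 in regulatory T cells (0.0131%), 6 of 10199 in CD8 T cells (0.0588%) and 0 of 9287 in B cells (0%). At an unadjusted p under 0.05, higher in Cre-positive mice, stood 5 of 10 members in conventional CD4 T cells (2.5% of all genes), 4 of 8 in regulatory T cells (2.34%), 7 of 10 in CD8 T cells (3.17%) and 5 of 8 in B cells (2.12%). The same count in DESeq2 was 5, 4, 6 and 5. No member stood at an unadjusted p under 0.05 in the lower direction. The 4 classes come from the same 6 mice and libraries, so they are not independent of each other.

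Separation of the mice was near the share of all genes in conventional CD4 and CD8 T cells, with 1 of 10 members each, and covered 3 of 8 members in regulatory T cells and 4 of 8 in B cells. All 3 Cre-positive values lay above all 3 Cre-negative values for Hspe1 in conventional CD4 T cells (5.16% of all genes) and in CD8 T cells (5.43%). In regulatory T cells Hspa8, Hsp90aa1 and Hsp90ab1 were separated (4.86% of all genes), and in B cells Hspe1, Dnaja1, Hsp90aa1 and Hsp90ab1 (4.57%). The fitted log2 fold change was above 0 for 10 of 10 members in conventional CD4 T cells, 6 of 8 in regulatory T cells, 10 of 10 in CD8 T cells and 8 of 8 in B cells. Its median over the members was 0.21, 0.20, 0.23 and 0.19, while the median over all genes was 0.00 in each. These are descriptions of a list chosen with results of these data known.

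**Figure D4:**
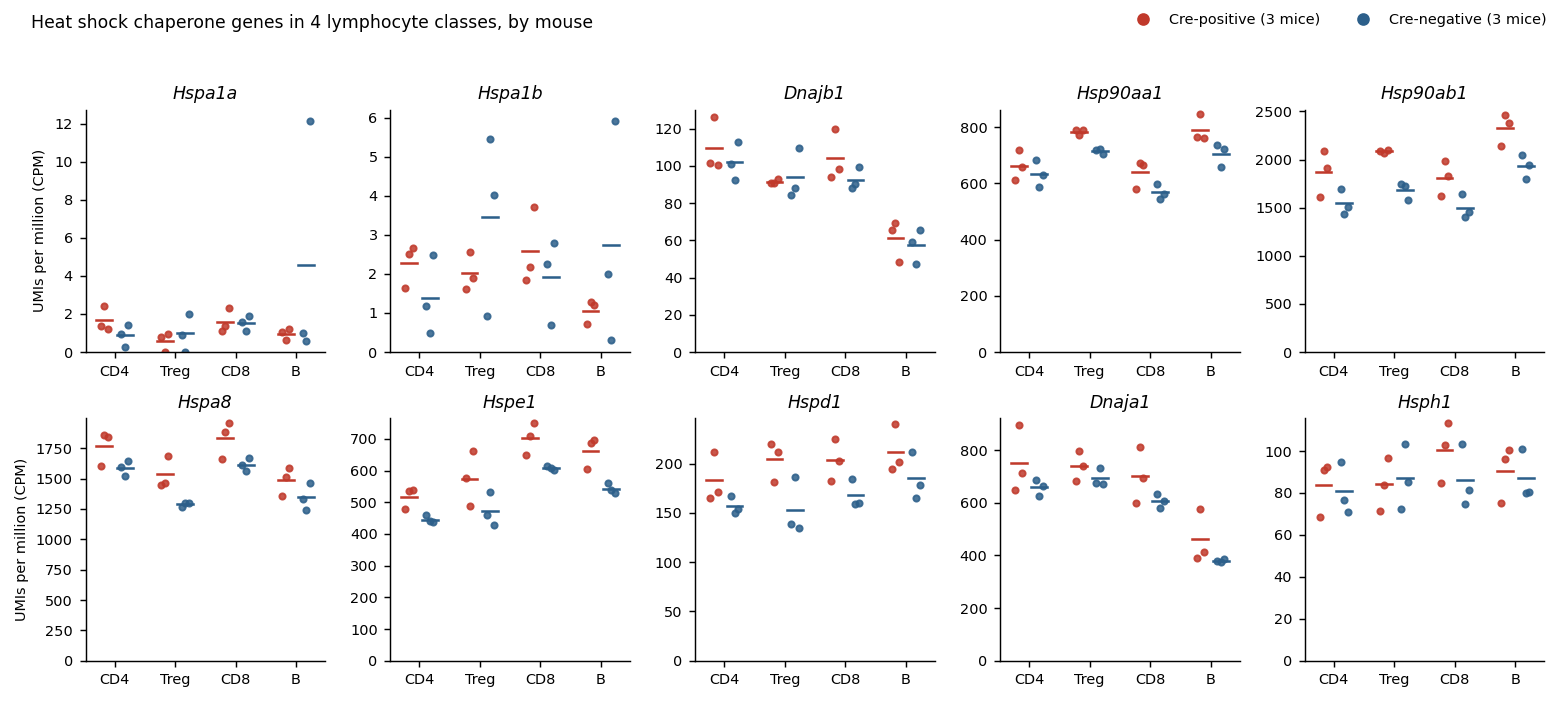
Level of each member (CPM, linear axis from 0) per mouse, with the group mean as a line, in conventional CD4 T, regulatory T, CD8 T and B cells, with Cre-positive mice left of Cre-negative mice. Hsp90ab1 in regulatory T cells runs from 2065 to 2104 CPM in Cre-positive mice and from 1584 to 1748 CPM in Cre-negative mice.

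The mitochondrial chaperonins Hspe1 and Hspd1 were also higher in Cre-positive mice at an unadjusted p under 0.05 in all 4 classes. Hspe1 in B cells had 605, 688 and 695 CPM in Cre-positive mice and 559, 540 and 528 CPM in Cre-negative mice (log2 fold change 0.30, SE 0.08, adjusted p = 0.638). Hspd1 in regulatory T cells had 219.7, 182 and 212 CPM in Cre-positive mice and 139, 186 and 135 CPM in Cre-negative mice (0.42, SE 0.13, adjusted p = 0.510). Hspe1 was separated by genotype in B cells, whereas Cre-positive 2 lay below Cre-negative 2 for Hspd1 in regulatory T cells. Hspd1 in CD8 T cells had the lowest adjusted p of any member and class (0.30, SE 0.08, adjusted p = 0.365).

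The remaining members had fitted genotype changes that varied between the classes. Hspa8 had log2 fold changes of 0.16 in conventional CD4, 0.25 in regulatory and 0.21 in CD8 T cells, and 0.16 in B cells. Dnaja1 had 0.19, 0.096, 0.23 and 0.28, and Hsp90aa1 0.071, 0.14, 0.19 and 0.18, in the same classes. Hsph1 (0.068, -0.048, 0.24 and 0.070) and Dnajb1 (0.10, -0.037, 0.18 and 0.092) had values on both sides of 0, and both changed sign in regulatory T cells and in B cells under at least 1 alternative setting.

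Neither gene of the inducible pair passed the genotype test, and Hspa1a in conventional CD4 T cells had an unadjusted p under 0.05. Hspa1a had 1.38, 2.43 and 1.23 CPM in the conventional CD4 T cells of Cre-positive mice and 0.957, 0.246 and 1.41 CPM in those of Cre-negative mice. Hspa1b had 1.63, 2.52 and 2.67 CPM in Cre-positive mice and 1.17, 0.493 and 2.49 CPM in Cre-negative mice. The groups overlap for both, and the lowest value of each belongs to Cre-negative 2. The log2 fold change was 0.94 (SE 0.43, adjusted p = 0.981) for Hspa1a and 0.71 (SE 0.39, adjusted p = 0.988) for Hspa1b. In CD8 T cells it was 0.042 (SE 0.40) for Hspa1a and 0.40 (SE 0.38) for Hspa1b, and in regulatory T cells and B cells neither gene had enough UMIs to be tested. Within groups, the SD of the log2 level in conventional CD4 T cells was 0.57 for Hspa1a and 0.60 for Hspa1b, against a median of 0.10 over 4926 genes.

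**Figure D5:**
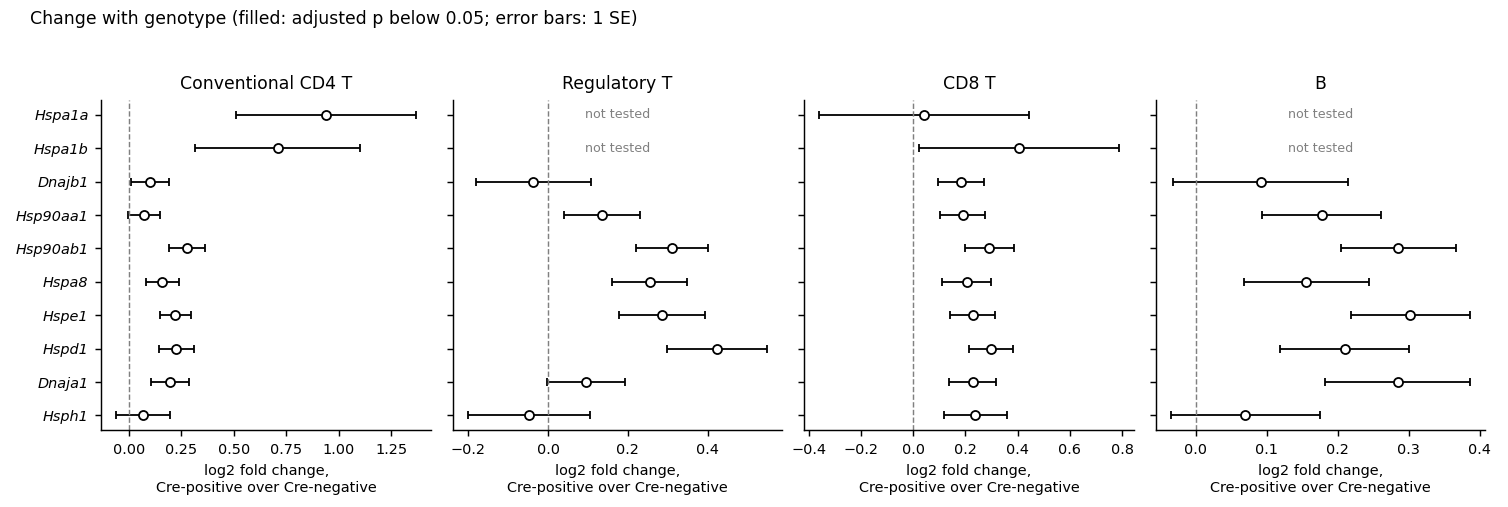
Log2 fold change of Cre-positive over Cre-negative mice for each member tested, with its standard error, in conventional CD4 T, regulatory T, CD8 T and B cells. Most members lie between 0 and 0.4, the pair has the widest bars, and 0 members are called.

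The size of these values depended on which mice were compared. The count of members at an unadjusted p under 0.05 in conventional CD4 T cells was 2 when either Cre-positive 2 or Cre-negative 2 was left out, 3 when Cre-negative 1 was and 8 when Cre-positive 1 was, against 5 with all mice. In CD8 T cells it was 3 without Cre-positive 2, 3 without Cre-negative 2 and 4 without Cre-positive 3, against 7. In B cells it was 2 without Cre-positive 2 and 3 without Cre-negative 2, against 5, and in regulatory T cells 2 without Cre-positive 3, against 4. Without Cre-positive 2 the median over members was 0.13 in conventional CD4 T cells and 0.14 in B cells. The share of all genes at an unadjusted p under 0.05 with a mouse left out is not given here. These counts therefore describe the members alone.

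The mice kept much the same order across classes. The 7 constitutive members summed to 5178, 6398 and 5927 CPM in the conventional CD4 T cells of Cre-positive mice and 5379, 4841 and 5118 CPM in those of Cre-negative mice. In B cells, which do not express Cd4, the sums were 5531, 6428 and 6139 CPM in Cre-positive mice and 5367, 4857 and 5302 CPM in Cre-negative mice. Cre-positive 2 was highest and Cre-negative 2 lowest in conventional CD4 T, CD8 T and B cells, while Cre-positive 3 was highest and Cre-negative 3 lowest in regulatory T cells. Cre-positive 2 and Cre-negative 2 also had the lowest and the highest median mitochondrial share, 3.91% and 4.82%, and the part of library quality in the order was not tested.

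Of the 3 other classes, cycling lymphocytes and plasmacytoid dendritic cells were separated by genotype in their constitutive sum and myeloid and dendritic cells were not. In cycling lymphocytes the 7 members summed to 6832, 6796 and 7600 CPM in Cre-positive mice and 5840, 5634 and 5560 CPM in Cre-negative mice. In plasmacytoid dendritic cells they summed to 4809, 5245 and 5375 CPM in Cre-positive mice and 4513, 4571 and 4190 CPM in Cre-negative mice. The sums rest on 38 to 55 cycling lymphocytes and 24 to 41 plasmacytoid dendritic cells per mouse. In the cycling lymphocytes, which come from several classes, the B-cell markers Cd79a and Ms4a1 were separated too. Cd79a was at 538, 304 and 368 CPM in Cre-positive mice and 289, 256 and 261 CPM in Cre-negative mice. Ms4a1 was at 340, 216 and 175 CPM in Cre-positive mice and 123.1, 105 and 104 CPM in Cre-negative mice, and the part of class composition was not tested. In myeloid and dendritic cells the 7 members summed to 5817, 5527 and 5436 CPM in Cre-positive mice and 5538, 5029 and 4700 CPM in Cre-negative mice, which overlap. Genotype was not tested in any of these 3 classes. The share of all genes separated in them is not given here, so these sums describe the members alone.

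The 3 inducible members had 2.02, 2.05 and 1.76 UMIs per 100 UMIs of the other 7 in the conventional CD4 T cells of Cre-positive mice and 1.92, 1.92 and 2.29 in those of Cre-negative mice. In CD8 T cells they had 1.80, 1.93 and 1.68 in Cre-positive mice and 1.71, 1.87 and 2.02 in Cre-negative mice. The groups overlapped in these 2 classes. Of the 6116 inducible UMIs in conventional CD4 T cells, 5937 were of Dnajb1. In regulatory T cells the ratio was 1.59, 1.60 and 1.52 in Cre-positive mice and 1.70, 1.77 and 2.36 in Cre-negative mice, separated by genotype and lower in Cre-positive mice, with Cre-negative 3 farthest from the others. In regulatory T cells Dnajb1 overlapped between the groups, at 91.5 ± 1.23 CPM in Cre-positive and 94.1 ± 13.5 CPM in Cre-negative mice. Hspa8, Hsp90aa1 and Hsp90ab1, which are among the other 7, were separated there and higher in Cre-positive mice. The ratio is thus not a result apart from theirs. None of these inducible-to-other ratios was tested, and no such ratios of other genes are set beside them.

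Across the 24 sums of 6 mice and 4 lymphocyte classes, each gene centred within its class, the constitutive members followed their own sum and the inducible ones did less. Pearson's r of log2 CPM with the sum of the 7 was 0.98 for Hsp90ab1, 0.93 for Hsp90aa1, 0.91 for Hspa8, 0.87 for Hspd1 and for Hspe1, 0.81 for Dnaja1 and 0.58 for Hsph1, all of which are part of that sum. It was 0.39 for Dnajb1, 0.24 for Hspa1b and 0.03 for Hspa1a, which are not. The sums share 6 libraries and the depth of each, so these values are descriptions. Among 4101 other genes of at least 20 CPM, the 5 most like the sum were Cacybp (0.84), Cct4 (0.82), Chchd2 (0.79), St13 (0.78) and Lsm1 (0.78). Cct4 is a subunit of the cytosolic chaperonin TRiC and St13 a cochaperone of HSP70. The 5 most like the inducible pair were Ormdl1 (0.71), Srsf10 (0.67), Atp6v1c1 (0.60), Itgb1bp1 (0.58) and Ube2d3 (0.57). The pair rests on few UMIs in these sums, 22 over all regulatory T cells. The B cell that held 48 of the 61 pair UMIs of Cre-negative 3 was kept. Both limits bear on every r of Hspa1a, Hspa1b and the pair, and their part was not tested.

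Conventional CD4 T cells and B cells were set against each other for their genotype difference, since CD4-Cre acts in the T lineage. Of 10 members, 1 was called in the interaction test, Hspa1a, among 9 of 11264 genes (0.0799%). Hspa1a had 1.07, 0.638 and 1.19 CPM in the B cells of Cre-positive mice and 1.00, 0.598 and 12.1 CPM in those of Cre-negative mice. The other 5 mice lay between 0.598 and 1.19 CPM, and Cre-negative 3 stood apart from them. The genotype difference in conventional CD4 T cells minus that in B cells was 2.94 on the log2 scale (SE 0.64, adjusted p = 0.0140), and that of Hspa1b was 2.04 (SE 0.61, adjusted p = 0.348).

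A single cell held most of the UMIs behind that value. In Cre-negative 3, a single B cell of 4286 UMIs held 33 of the 41 Hspa1a UMIs and 15 of the 20 Hspa1b UMIs among 835 B cells. Without it the pair in that mouse was 3.86 CPM instead of 18.1, and the Hspa1a difference was 1.24 with an adjusted p of 0.968. DESeq2 gave 2.40 with an adjusted p of 1.00. Leaving out Cre-negative 2 (3.04, adjusted p = 0.0622) or Cre-positive 3 (3.26, adjusted p = 0.0553) also ended the call, and without Cre-negative 3 or Cre-positive 2 the gene fell below the filter on low counts. For the 7 constitutive members the difference between the classes ran from -0.12 for Hsp90aa1 to 0.0014 for Hspd1, with standard errors of 0.04 to 0.09, and none was called.

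Other chaperone and cochaperone genes were counted in the same fits, by lists chosen with results of these data known. By genotype 0 genes of any list were called in any of the 4 classes. With the antigen signal, 4 of 15 endoplasmic reticulum genes rose (8.29% of all genes did) and 0 fell (5.38% of all genes did): the lumenal HSP70 gene Hspa5 (0.46), Herpud1 (0.37), Pdia3 (0.13) and Calr (0.12). Of 15 HSP70 cochaperones 2 rose, Hspa4l (0.95) and Dnajb4 (0.28), a share near that of all genes, and 0 of the 7 measured subunits of TRiC, which folds actin and tubulin, were called.

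Between classes, most genes of the endoplasmic reticulum list were higher in B cells and in myeloid and dendritic cells than in conventional CD4 T cells. In B cells 13 of 15 were higher (33.6% of all genes were) and 1 lower (31.6% of all genes were), with Sdf2l1 (2.23), Pdia6 (1.83), Hsp90b1 (1.198) and Canx (1.10) among the higher ones. In myeloid and dendritic cells 11 of 15 were higher (40.4% of all genes were) and 2 lower (33.2% of all genes were), with Herpud1 at 2.33 and Calr at 1.01. Bag3, a cochaperone that Hsf1 induces together with the pair, was lower in B cells (-3.84), where the pair was not called. It is 1 of 16 HSP70 cochaperones, of which 6 were higher and 5 lower in B cells. The small heat shock protein gene Hspb1 was higher in myeloid and dendritic cells (5.88), together with the pair. Of the 3 genes of the heat shock factor list, 2 were higher there and 1, Hsf1, was lower (-1.45). Of the 7 TRiC subunits, 5 were higher in CD8 T cells (15.6% of all genes were; Cct3 at 0.26) and 4 in cycling lymphocytes (18% of all genes were; Tcp1 at 0.56), with 0 lower in either. In myeloid and dendritic cells 4 were higher and 1 lower, and in B cells 3 were higher and 0 lower. In regulatory T cells 3 TRiC subunits were lower (14.7% of all genes were) and 1 higher (17.1% of all genes were), and 4 of 12 HSP90 cochaperones were lower.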

How the data were processed

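Single-cell RNA was measured in 6 libraries, 1 per mouse. The authors deposited UMI counts per gene and barcode, made with Cell Ranger 6.1.2 and mm10, per the submitters' processing notes. Which annotation release they used is not given in the sources used here. Barcodes with at least 500 UMIs, 300 genes and at most 10% mitochondrial UMIs were kept, and the highest Scrublet scorers (scanpy 1.11.5) were removed at 0.8% per 1000 barcodes. Cells were gated by marker UMIs, and UMIs were summed per mouse and class (at least 20 cells). Sums were tested with edgeR 4.0.16 (quasi-likelihood F test, TMM factors, filterByExpr, Benjamini-Hochberg adjustment over all genes tested, threshold 0.05), with mouse as a term between classes and states. DESeq2 1.42.0 was the alternative tool. Standard errors were taken as the absolute log2 fold change divided by √F. The fit was tested on simulated data, with changes larger than any member's genotype change within a class. The changed genes had levels above those of the pair in lymphocytes. The simulation therefore cannot say how often the fit would find changes of the members' size or at the pair's level. Labels give no separate cultures or litters. The p-values by genotype within a class rest on the spread between these mice, which edgeR draws towards that of the other genes. Those of fits with mouse as a term rest on the spread left after the mouse and the class or state, drawn towards other genes likewise. Comparisons between classes share 1 fit, so their spread is pooled over all classes and is not that of the named difference alone.

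The named genes are all 10 members, up to 4 called genes of smallest p per other list and comparison, and the 5 genes of highest r with the pair or the constitutive sum; the members and lists were chosen with earlier results of these data known. The floxed gene and a second comparison of T cell states are not reported here. Mice with the same number did not deviate together, so numbers were not used as pairs. Values per single cell cover counting error only. Alternatives were other scalings, filters, gates and mice left out. Except with replicate number as a block, counts of members under an alternative are given without the share of all genes under it.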

Additional observations from a re-analysis of the deposited data

Results flagged for a closer look

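The genotype difference of Hspa1a, the inducible HSP70 gene, differed between conventional CD4 T cells and B cells by 2.94 on the log2 scale in the interaction test (edgeR, SE 0.64, adjusted p = 0.0140). In B cells 1 cell of Cre-negative 3 held 33 of the 41 Hspa1a UMIs of that mouse, and without that cell the difference was 1.24 with an adjusted p of 0.968.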

How the results depend on the processing

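Over 11 counts of members called, 159 of 177 alternative values stayed within 1.5 times, and over 74 single-member results 1103 of 1184 kept direction and side of the threshold, 46 lost the call, 3 gained it and 32 changed sign. The CD4 against B genotype difference had 0 members called in DESeq2, at 5% mitochondrial UMIs, with 1 more UMI in each gate, without cells of at least 10 immediate early UMIs and without the 1 B cell, and 0 to 1 with a mouse left out. The antigen signal count was 3 in DESeq2 and 8 with library size alone. The regulatory T cell count was 8 with 1 more UMI and 4 without Cst3 (2 to 4 with a mouse left out), the CD8 count 2 at 5% mitochondrial UMIs and with library size alone (2 to 3), and the B-cell count 4 without Cst3. Signs changed by genotype without immediate early cells for Hsp90aa1 in CD4 (-0.026), Hsph1 in regulatory T (0.34) and B cells (-0.039) and Dnajb1 in B cells (-0.10), and without Cst3 in regulatory T cells for Hsph1 (0.085) and Dnajb1 (0.065). In regulatory against CD4 T cells Hsp90aa1 was -0.032 with no low-count filter, -0.15 with 1 more UMI and -0.048 without Cst3, and Hsp90ab1 was 0.011 in DESeq2 and with RLE factors and 0.15 with library size alone. In B against CD4 cells without Cst3, Hspd1 was -0.065, Hsph1 -0.13 and Hsp90aa1 -0.0038, and Hspa1b was 1.19 at 5% mitochondrial UMIs. Hsp90ab1 in myeloid and dendritic cells was -0.15 without Cst3 and -0.065 with library size alone. With a mouse left out, genotype values ran from -0.030 to 0.19 for Hsph1 in CD4, -0.19 to 0.10 for Hsph1 and -0.14 to 0.10 for Dnajb1 in regulatory T, -0.30 to 0.25 for Hspa1a in CD8, and -0.036 to 0.19 for Hsph1 and -0.017 to 0.23 for Dnajb1 in B cells; against CD4 cells they ran from -0.013 to 0.055 for Hsp90aa1 and -0.091 to 0.0033 for Hsp90ab1 in regulatory T cells and from -0.68 to 0.20 for Hspa1b in B cells. The cause was not tested. With replicate number as a block, 0 members were called in any class, while all genes gave 53 calls against 6 in CD8, 7 against 1 in CD4 and 2 against 1 in regulatory T cells; the correlation of same-numbered mice ran from -0.48 to 0.46 in CD4 T cells. Removing immediate early cells could not be run in the fit over all classes, since too few cells remained, and was not run for the antigen signal. Depth limits the pair, which rests on 179 UMIs in 10770 conventional CD4 T cells.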
